A study of Mus musculus with 8 samples.

Results

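The Slc25 family of mitochondrial carriers was followed by bulk RNA sequencing in mouse macrophages that had been grown in culture from bone marrow. Its members were taken as the protein-coding rows of the deposited gene table named Slc25a with a number, without Slc25a1, and these were 46 genes of 54532. The study set cells labelled ELF1 KO beside WT cells, with and without lipopolysaccharide (LPS), a component of the Gram-negative outer membrane that macrophages sense through TLR4. Elf1, the gene of the KO label, encodes a transcription factor of the ETS family. The 8 libraries formed 4 groups of 2: ELF1 KO cells with LPS for 6 h, WT cells with LPS for 6 h, ELF1 KO cells without LPS and WT cells without LPS. The LPS libraries carry the label M1, and they were taken as the LPS arm since no other stimulus is named. The labels do not give the allele, the strain or the age of the mice. Nothing in them says that both libraries of a group come from separate animals or cultures, so the p-values measure only the spread between these libraries. A library is named below by its genotype label, its treatment and its number, as in KO LPS 1.

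SLC25 proteins sit in the inner mitochondrial membrane, where most of them exchange a metabolite of the matrix for one of the cytosol. Among them are the carriers that trade ADP for ATP and import phosphate for ATP synthesis, the aspartate/glutamate carriers of the malate-aspartate shuttle, which brings the reducing equivalents of cytosolic NADH into the matrix, and the mitoferrins, which import iron for heme and iron-sulfur clusters. Macrophages given LPS are known to move their ATP supply towards glycolysis and to rewire the tricarboxylic acid cycle.

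Levels are given as FPKM, a read count scaled to gene length and library size, as the authors deposited them. Reads rebuilt from these values summed to 15753259 to 17133646 per library with LPS and to 17297543 to 18058974 without it. Elf1 stood at 16.5 and 17.9 FPKM in KO LPS libraries, against 21.9 and 22.4 FPKM in WT LPS libraries. Without LPS it stood at 16.9 and 16.1 FPKM in KO libraries, against 12.4 and 14.1 FPKM in WT libraries. Elf1 was therefore not lower in the KO libraries without LPS, so these libraries are called KO-labelled, and each genotype difference below is a difference between labels. All 6 macrophage markers were detected, and they summed to 2009 to 2331 FPKM per library. Within that sum single genes moved in both directions. Mertk stood at 3.94 to 8.36 FPKM with LPS and 29.1 to 32.2 FPKM without it. Fcgr1 stood at 358 and 352 FPKM in KO LPS and 550 and 586 FPKM in WT LPS libraries, against 36.2 to 50.6 FPKM without LPS. The lists for erythroid cells, of which 3 of 8 genes were at 0 in every library, and for T, NK or B cells summed to at most 0.664 and 0.716 FPKM, and the list for mast cells or basophils to at most 1.22 FPKM. The 8 neutrophil markers, with Retnlg at 0 throughout, summed to 9.51 to 14.1 FPKM with LPS, against 2.17 to 3.79 FPKM without it. The 4 dendritic cell markers summed to 0.797 to 1.48 FPKM with LPS, against 0.171 to 0.441 FPKM without it, and the 6 fibroblast markers to 7.35 to 16.2 FPKM, against 0.686 to 12.4 FPKM. Single genes carried much of these rises. The neutrophil marker S100a8 stood at 6.65 to 9.79 FPKM with LPS and 0.591 to 1.59 FPKM without it. Elane and Mpo stayed at or under 0.597 FPKM throughout. The dendritic cell marker Xcr1 stood at 0.308 to 1.25 FPKM, against at most 0.0307 FPKM. Of the fibroblast markers, Pdgfrb stood at 6.22 to 7.07 FPKM with LPS and 0.140 to 1.22 FPKM without it. Col1a1 was highest in WT no LPS 1, at 6.85 FPKM. In LPS libraries it stood at 0.470 and 0.664 FPKM under the KO label, against 1.47 and 6.15 FPKM in WT. The part of these cell types in the LPS results and in the differences between labels was not tested. In bulk RNA, fewer cells of a type and less RNA per cell cannot be told apart.

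Of the 46 carriers, 35 reached at least 1 FPKM in at least 2 libraries and were tested among 11887 genes. The other 11 were Slc25a2, Slc25a21, Slc25a29, Slc25a31, Slc25a34, Slc25a41, Slc25a42, Slc25a47, Slc25a48, Slc25a53 and Slc25a54, and their highest value in any library was 0.741 FPKM, for Slc25a42. Slc25a21 and Slc25a48 had no read in any of the 8 libraries, where 3 reads, the limit that a count of 0 allows for counting error, correspond to 0.0276 to 0.0477 FPKM and to 0.0399 to 0.0689 FPKM. The family spread over a wide range of levels, with 12 members above a mean of 10 FPKM, 7 between 5 and 10 FPKM and 16 tested members at or under 5 FPKM. Summed over all 46 members, the family reached 499 and 492 FPKM in KO-labelled LPS libraries, 514 and 530 FPKM in WT LPS libraries, 424 and 418 FPKM in KO-labelled libraries without LPS and 421 and 423 FPKM in WT libraries without LPS. That sum was higher with LPS, whereas its share of the FPKM of all genes was lower with LPS, at 0.141 to 0.155% against 0.172 to 0.183% without it. Replicates of a group differed by a median of 0.04 to 0.09 on the log2(FPKM + 1) scale over the tested members, against 0.07 to 0.10 over all tested genes.

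**Figure D1:**
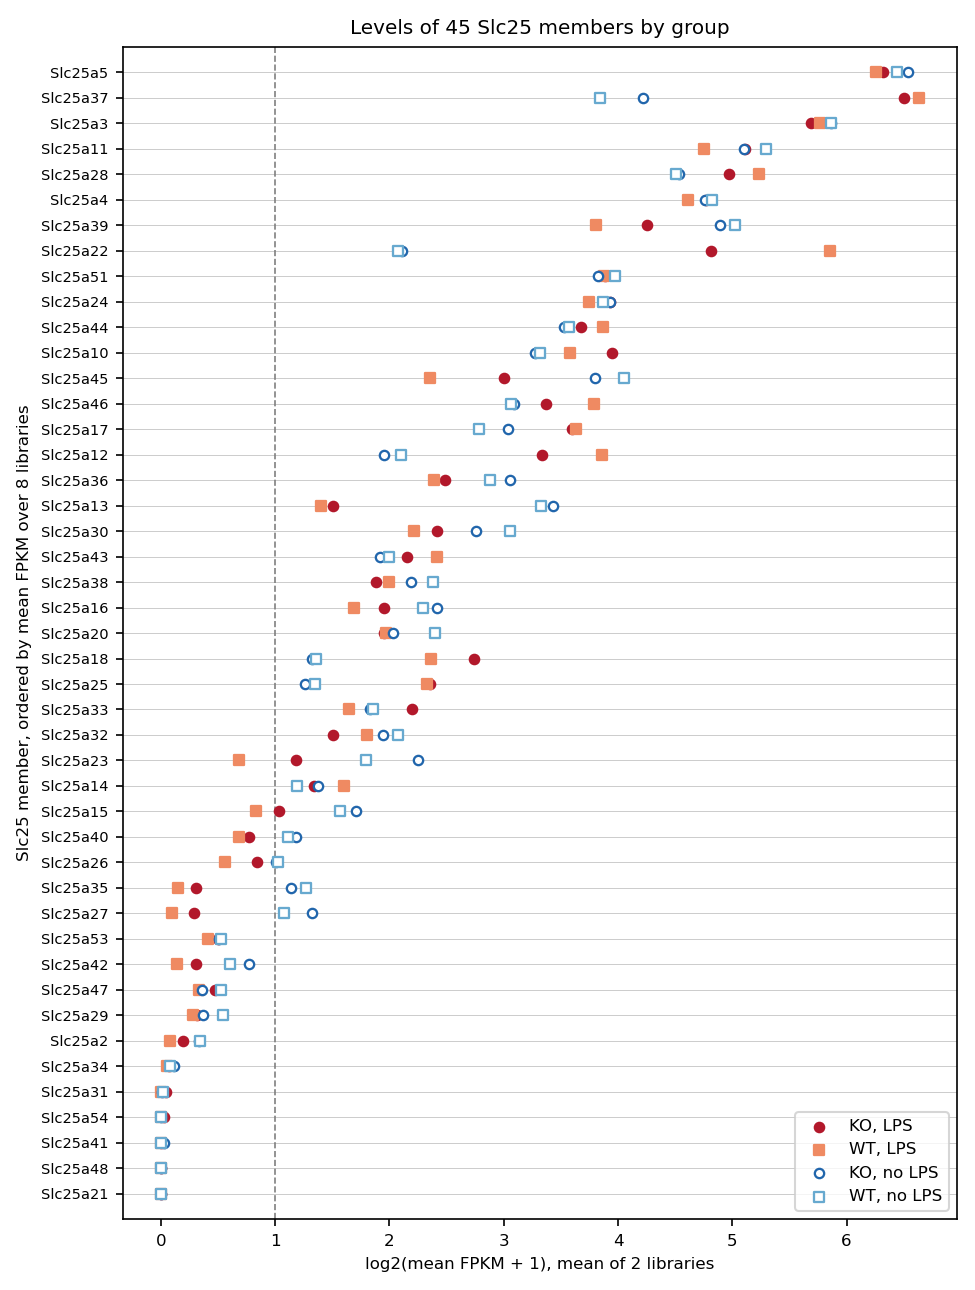
Level of 45 of the 46 Slc25 members in the 4 groups, as log2 of the mean FPKM of 2 libraries plus 1, ordered by the mean over all 8 libraries; the dashed line marks 1 FPKM. Slc25a5 heads the order with a mean of 83.0 FPKM, and Slc25a37 and Slc25a22 show the widest gaps between the LPS groups and the groups without LPS.

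LPS against no LPS asks how macrophages of each label respond to the stimulus. Among the largest rises of the carriers were those of the glutamate carrier Slc25a22, which by mean FPKM stood 8.20 times higher with LPS in KO-labelled and 17.7 times higher in WT libraries, of mitoferrin Slc25a37 (5.09 times in KO-labelled and 7.37 times in WT libraries) and of the aspartate/glutamate carrier Slc25a12 (3.17 times in KO-labelled and 4.11 times in WT libraries). The largest fall by log2(FPKM + 1), under both labels, was that of the other aspartate/glutamate carrier, Slc25a13. By the ratio of mean FPKM, Slc25a27 fell more than Slc25a13 under both labels, and Slc25a35 did so in WT libraries only. In WT libraries the mean went from 1.11 to 0.0673 FPKM with LPS for Slc25a27 and from 1.41 to 0.110 FPKM for Slc25a35. That of Slc25a13 went from 9.03 to 1.64 FPKM, so its rank rests on the scale. A change is given as the difference in log2(FPKM + 1), which understates the change of low genes, and the threshold was an adjusted p of 0.05 in limma, with Benjamini-Hochberg adjustment over all tested genes. By this rule 26 of the 35 tested carriers passed in KO-labelled libraries, where 65.9% of all tested genes did. Of these 11 were higher with LPS (34.7% of all genes) and 15 lower (31.2%). In WT libraries 28 of 35 passed, where 71.5% of all tested genes did, 13 of them higher (37.7% of all genes) and 15 lower (33.9%). In the same direction under both labels 22 carriers passed, 10 higher and 12 lower, and none passed in opposite directions. The median LPS change of the tested carriers was -0.04 in KO-labelled libraries, where that of all tested genes was 0.02, and -0.20 in WT libraries, where that of all genes was 0.04. Among the members lower with LPS, Slc25a26, Slc25a27, Slc25a35 and Slc25a40 reached 1 FPKM in libraries without LPS only, so that passing the filter already placed them there. Without these 4 the counts were 11 higher and 12 lower in KO-labelled libraries and 13 higher and 11 lower in WT libraries, of 31 tested. As shares of the 31 these were 35.5% higher and 38.7% lower in KO-labelled and 41.9% higher and 35.5% lower in WT libraries, and nothing particular to the family is read from them beside the shares of all genes.

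The split into higher and lower depended on the scaling of the table. With TPM scaling the median LPS change of all genes moved to -0.42 in KO-labelled and -0.51 in WT libraries, and with quantile normalization to -0.11 and -0.13. In KO-labelled libraries the split of the carriers became 6 higher and 22 lower with TPM scaling and 9 higher and 19 lower with quantile normalization. In WT libraries it became 7 higher and 24 lower with TPM scaling and 10 higher and 19 lower with quantile normalization. Of all 11887 tested genes, TPM scaling gave 2451 higher and 6497 lower in KO-labelled and 2545 higher and 6846 lower in WT libraries. Quantile normalization gave 3312 higher and 4577 lower in KO-labelled and 3528 higher and 4912 lower in WT libraries. Counts with LPS under a scaling, here and below, stand beside these. Counted relative to the median of all tested genes, 14 of 35 carriers stood above it in KO-labelled libraries as deposited, 14 with TPM scaling and 16 with quantile normalization. In WT libraries 13 stood above it as deposited, 13 with TPM scaling and 14 with quantile normalization. TPM scaling placed the LPS change of all 35 tested carriers lower than as deposited, with shifts of -1.12 to -0.099 in KO-labelled and -1.29 to -0.29 in WT libraries. Falls were therefore larger and rises smaller under it. Between labels with LPS it shifted all 35 upward, by 0.089 to 0.41. The changes below are as deposited, and members whose direction or call turned under a scaling are given with those values where they are described.

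**Figure D2:**
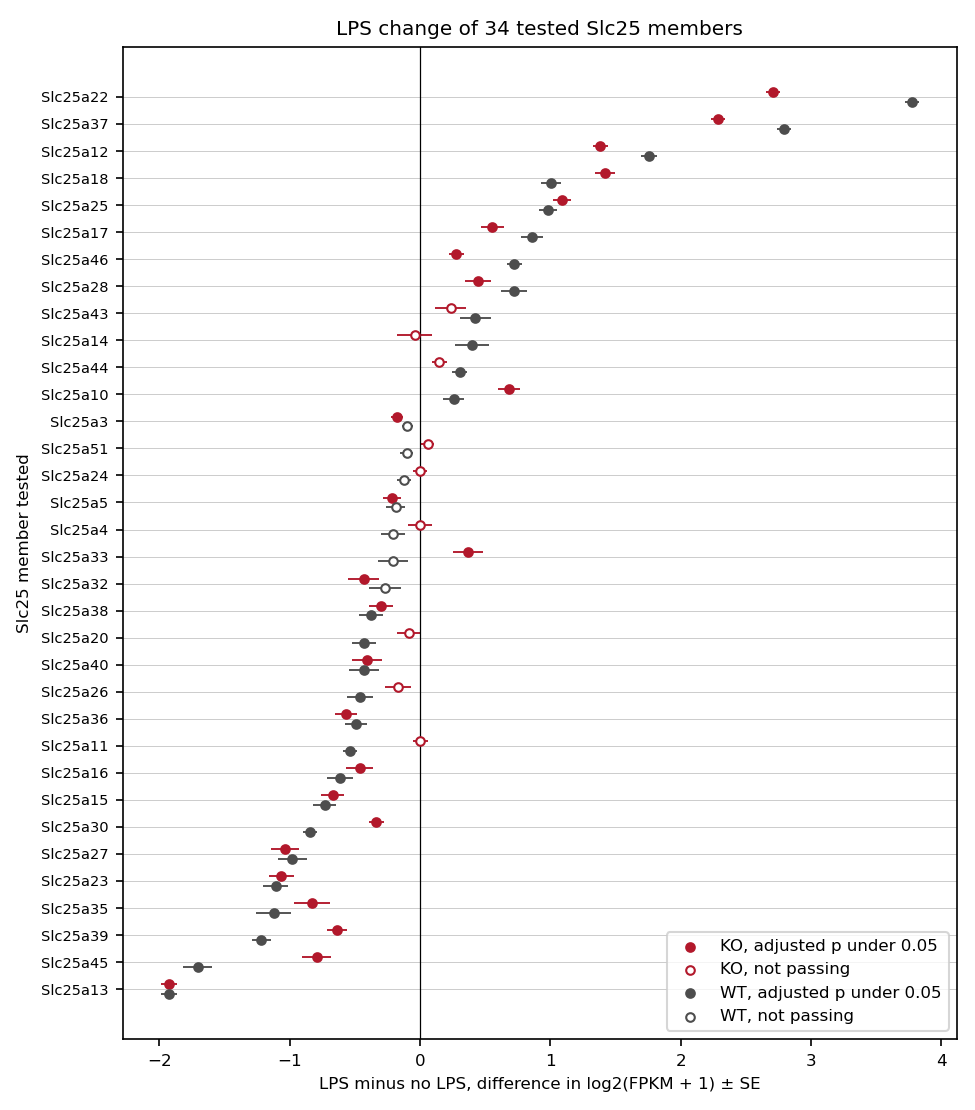
LPS change of 34 of the 35 tested carriers, as the difference in log2(FPKM + 1) between libraries with and without LPS, with its standard error, in KO-labelled (red) and WT (grey) libraries; filled points passed at an adjusted p under 0.05. Slc25a22 and Slc25a37 stand at the top in both labels and Slc25a13 at the bottom; with TPM scaling, of the changes that passed and are drawn, those of Slc25a10, Slc25a43 and Slc25a44 in WT libraries and of Slc25a28 and Slc25a46 in KO-labelled libraries fall below 0, and so does that of Slc25a44 with quantile normalization.

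KO-labelled against WT asks what the label goes with in each treatment. With LPS the largest difference was again at Slc25a22, which stood 2.10 times lower in KO-labelled libraries, and Slc25a12 was lower as well. Slc25a45, the pyrimidine nucleotide carrier Slc25a33, the ATP-Mg/phosphate carrier Slc25a23 and the glutathione carrier Slc25a39 were the members with the largest positive differences. In all 13 of 35 carriers passed with LPS, where 28.9% of all tested genes did, 9 of them higher (10.8% of all genes) and 4 lower (18.1%). The median difference of the carriers was 0.09, where that of all tested genes was -0.02. With TPM scaling, under which the median of all genes was 0.16, the split was 17 higher and 3 lower, and with quantile normalization it was 11 higher and 3 lower. Of all 11887 tested genes 3010 were higher and 1075 lower with TPM scaling, and 1581 were higher and 1371 lower with quantile normalization. The count of higher members with LPS fell to 4 without KO LPS 2 and to 5 without WT LPS 2. Without LPS 3 of 35 passed, where 5.64% of all tested genes did: Slc25a37 and Slc25a23 were higher (1.72% of all genes) and Slc25a30 was lower (3.92%). The split without LPS was 1 higher and 0 lower with TPM scaling, where 353 of all 11887 genes were higher and 265 lower. It was 2 higher and 2 lower with quantile normalization, where 349 of all genes were higher and 481 lower. Left out in turn, every single library brought the count without LPS to 0 or 1 higher and to 0 or 1 lower.

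Whether the responses differ was tested by the interaction, the LPS change of KO-labelled libraries less that of WT libraries. It passed for 8 of the 35 carriers, where 16.0% of all tested genes passed. In the positive direction were Slc25a45, Slc25a39, Slc25a11 and Slc25a30 (5.64% of all genes), and in the negative direction Slc25a22, Slc25a37, Slc25a46 and Slc25a12 (10.3%). In those 8 members the LPS change was the smaller one, in absolute size, in KO-labelled libraries. Over all tested carriers the absolute LPS change was smaller in KO-labelled libraries for 25 of 35, where 64.6% of all tested genes showed this. With TPM scaling the interaction split of the carriers was 6 positive and 2 negative, where 947 of all 11887 genes were positive and 669 negative. With quantile normalization it was 4 positive and 2 negative, where 777 of all genes were positive and 722 negative. Without KO no LPS 2 the count in the negative direction was 2.

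**Figure D3:**
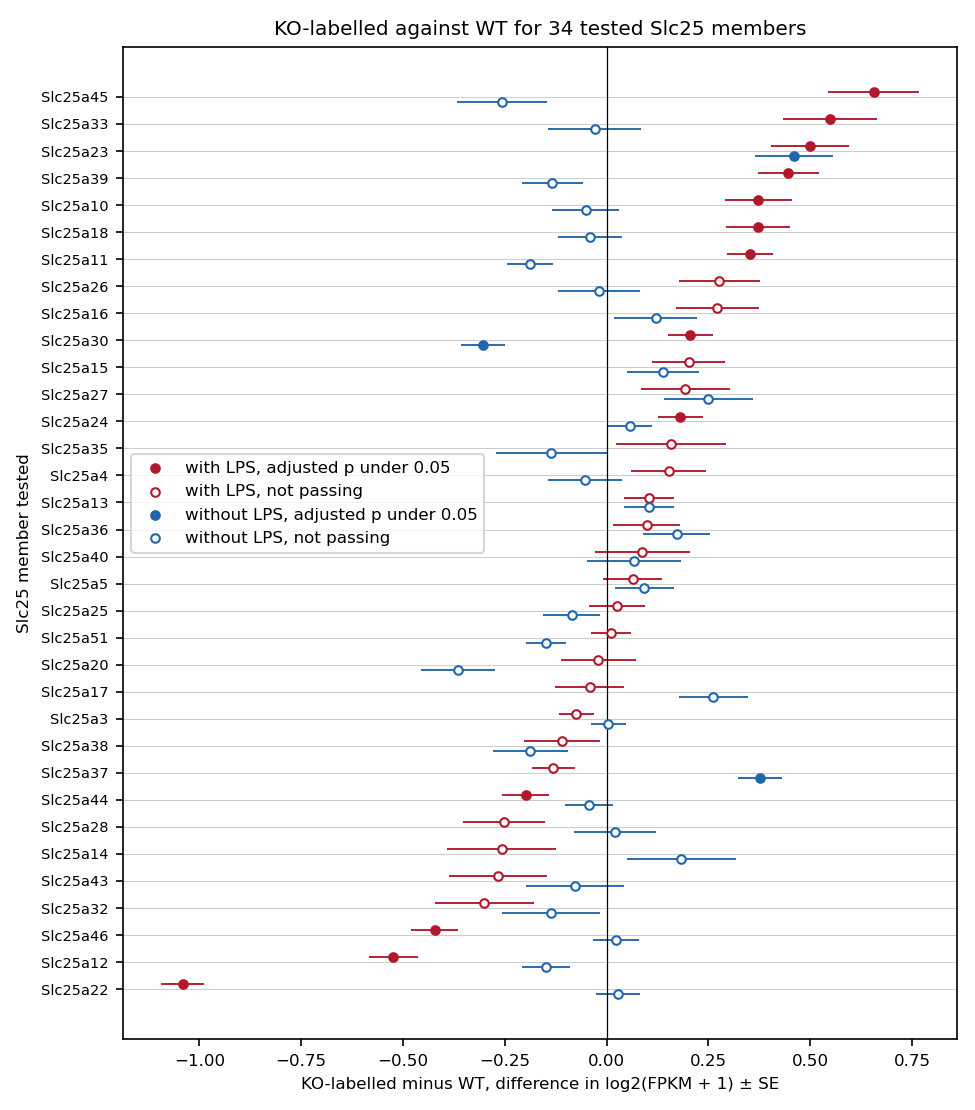
Difference between KO-labelled and WT libraries for 34 of the 35 tested carriers, as the difference in log2(FPKM + 1) with its standard error, with LPS (red) and without LPS (blue); filled points passed at an adjusted p under 0.05. With LPS 9 filled points lie right of 0 and 4 left of it, Slc25a22 farthest, against 3 filled points without LPS.

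The amino acid carriers held the largest rise and, by log2(FPKM + 1), the largest fall. Of 10 members 8 were tested, and with LPS 3 were higher and 3 lower in KO-labelled libraries, while 4 were higher and 4 lower in WT libraries. With TPM scaling 3 were higher and 5 lower under each label. Slc25a22 is the main mitochondrial glutamate carrier and lies on chromosome 7 at 141429744 to 141437892 (mm10, minus strand). It stood at 26.3 and 28.0 FPKM in KO-labelled LPS libraries and 55.5 and 58.4 FPKM in WT LPS libraries, against 3.32 and 3.30 FPKM in KO-labelled and 3.26 and 3.19 FPKM in WT libraries without LPS. The LPS libraries lay far above the others under both labels, the KO-labelled ones well below the WT ones, and the libraries without LPS nearly coincided. Slc25a22 rose with LPS by 2.71 ± 0.05 in KO-labelled libraries (adjusted p = 3.03e-08) and by 3.78 ± 0.05 in WT libraries (adjusted p = 6.49e-09). The KO-labelled difference was -1.04 ± 0.05 with LPS (adjusted p = 9.08e-05) and 0.03 ± 0.05 without it (adjusted p = 0.813), and the interaction was -1.07 ± 0.08 (adjusted p = 7.79e-04). Its share of the summed FPKM of the family was 5.27 and 5.69% in KO-labelled LPS libraries and 10.8 and 11.0% in WT LPS libraries, against 0.754 to 0.789% without LPS.

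Slc25a18, the second glutamate carrier, stood at 5.57 and 5.78 FPKM in KO-labelled LPS libraries and 3.95 and 4.38 FPKM in WT LPS libraries, against 1.56 and 1.43 FPKM in KO-labelled and 1.48 and 1.66 FPKM in WT libraries without LPS. Here the KO-labelled LPS libraries were the highest, the opposite order to Slc25a22. Slc25a18 rose by 1.42 ± 0.08 in KO-labelled and by 1.01 ± 0.08 in WT libraries (adjusted p = 4.81e-06 and 2.47e-05), and with LPS it was higher in KO-labelled libraries by 0.37 ± 0.08 (adjusted p = 0.0135), a call lost without KO LPS 2 or WT LPS 1 (adjusted p = 0.0669 to 0.0700). Its interaction of 0.41 ± 0.11 did not pass (adjusted p = 0.0508) and was 0.60 with TPM scaling (adjusted p = 0.0320). Slc25a18 overlaps 32 bases of Atp6v1e1 on the other strand, and Atp6v1e1 averaged 63.1 FPKM in KO-labelled and 72.3 FPKM in WT LPS libraries, against 22.9 FPKM in KO-labelled and 24.6 FPKM in WT libraries without LPS; whether the counting used strand is not stated, and the part of such reads was not tested. Slc25a22 made up 82.5 and 82.9% of the summed FPKM of both glutamate carriers in KO-labelled LPS libraries and 93.4 and 93.0% in WT LPS libraries. Without LPS it made up 68.1 and 69.7% in KO-labelled libraries and 68.8 and 65.8% in WT libraries.

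The aspartate/glutamate carriers Slc25a12 and Slc25a13, which export aspartate to the cytosol in exchange for glutamate, moved in opposite directions with LPS. Slc25a12 lies on chromosome 2 at 71271063 to 71367749 and Slc25a13 on chromosome 6 at 6041218 to 6217173 (mm10, both on the minus strand). Slc25a12 stood at 9.28 and 8.95 FPKM in KO-labelled and 13.3 and 13.8 FPKM in WT LPS libraries, against 3.0 and 2.75 FPKM in KO-labelled and 3.29 and 3.31 FPKM in WT libraries without LPS. Slc25a13 stood at 1.75 and 1.92 FPKM in KO-labelled and 1.58 and 1.69 FPKM in WT LPS libraries, against 9.81 and 9.75 FPKM in KO-labelled and 8.89 and 9.17 FPKM in WT libraries without LPS. For each of them the LPS libraries lay clear of the others, Slc25a12 above and Slc25a13 below. Slc25a12 rose by 1.38 ± 0.06 in KO-labelled and 1.76 ± 0.06 in WT libraries (adjusted p = 1.25e-06 and 3.01e-07). Slc25a13 fell, with changes of -1.93 ± 0.06 in KO-labelled and -1.93 ± 0.06 in WT libraries (adjusted p = 2.94e-07 and 2.37e-07). Slc25a12 made up 84.1 and 82.4% of the summed FPKM of this pair in KO-labelled LPS libraries and 89.3 and 89.1% in WT LPS libraries, against 23.4 and 22.0% in KO-labelled and 27.0 and 26.5% in WT libraries without LPS. The pair thus changed its main member in all 4 LPS libraries, while its sum as deposited stayed between 10.9 and 15.5 FPKM in all 8. The FPKM of all genes summed to 318681 to 375795 with LPS and to 229757 to 245560 without it. As a share of that total the pair was lower with LPS, so the steadiness of its sum rests on the scaling.

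With LPS Slc25a12 was lower in KO-labelled libraries, at a difference of -0.52 ± 0.06 (adjusted p = 0.00110), and without LPS the difference was -0.15 ± 0.06 (adjusted p = 0.213). An intron-retaining transcript of Adpgk shares 247 bases with Slc25a12 at 99.6% identity, and Adpgk, at 1.23 to 3.19 FPKM, may hold reads shared with it. The Slc25a12 interaction of -0.37 ± 0.08 passed (adjusted p = 0.0275) and did not pass once any single library was left out (adjusted p = 0.0557 to 0.107). It was -0.24 both with TPM scaling (adjusted p = 0.146) and with quantile normalization (adjusted p = 0.128), and with a pseudocount of 0.1 its adjusted p was 0.0547. Slc25a13 differed by 0.10 ± 0.06 with LPS and by 0.10 ± 0.06 without it, and neither passed (adjusted p = 0.261 and 0.392), whereas with TPM scaling Slc25a13 was higher with LPS by 0.31 (adjusted p = 0.0219).

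Promoter sequences, 250 bases before to 50 after an annotated start, are shown for Slc25a22, the member with the largest rise, and for the pair that moved in opposite directions. They are from RefSeq on GRCm38.p6, all on the minus strand and read 5′ to 3′ of the gene. Capitals mark GGAA, the core that ETS factors such as Elf1 bind, on either strand. The Slc25a22 window, chr7:141437825-141438124, is the one of its 3 entries nearest the deposited start of the gene, the Slc25a12 window is chr2:71367706-71368005 and the Slc25a13 window is chr6:6217124-6217423.
Slc25a22: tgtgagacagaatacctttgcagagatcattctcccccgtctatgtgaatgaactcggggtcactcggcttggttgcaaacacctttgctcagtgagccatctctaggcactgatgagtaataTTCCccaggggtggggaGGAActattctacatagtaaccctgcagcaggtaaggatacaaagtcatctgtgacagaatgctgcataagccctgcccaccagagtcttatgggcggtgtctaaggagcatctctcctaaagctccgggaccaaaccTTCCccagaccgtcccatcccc
Slc25a12: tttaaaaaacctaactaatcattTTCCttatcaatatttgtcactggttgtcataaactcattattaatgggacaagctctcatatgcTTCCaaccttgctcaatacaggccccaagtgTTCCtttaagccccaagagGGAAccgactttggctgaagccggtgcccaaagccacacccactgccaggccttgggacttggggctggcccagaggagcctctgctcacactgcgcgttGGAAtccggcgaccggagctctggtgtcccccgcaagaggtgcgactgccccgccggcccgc
Slc25a13: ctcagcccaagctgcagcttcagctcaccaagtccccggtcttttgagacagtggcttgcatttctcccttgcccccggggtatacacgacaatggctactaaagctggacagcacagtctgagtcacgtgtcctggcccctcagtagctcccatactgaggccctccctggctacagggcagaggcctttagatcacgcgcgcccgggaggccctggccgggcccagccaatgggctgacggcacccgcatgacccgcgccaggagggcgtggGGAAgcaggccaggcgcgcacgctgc
The core occurs 3 times in the Slc25a22 window, 5 times in that of Slc25a12 and 1 time in that of Slc25a13. It was found on either strand in all 35 members of the family matched by symbol to the table, of which 26 were among the tested carriers. Counted by gene, 96.5% of all genes in the table hold it, and 96.0% of all 32851 promoters do. The longer ETS form CCGGAAGT, which contains the core, was found in Slc25a20 alone, where 4.31% of all genes and 3.89% of all promoters hold it. These motifs were chosen after the values were seen, and a match is a description of letters in this window.

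Among the remaining amino acid carriers Slc25a44, which carries branched-chain amino acids, stood at 11.5 and 12.0 FPKM in KO-labelled LPS libraries, against 13.2 and 14.1 FPKM in WT LPS libraries. Without LPS it stood at 10.4 and 10.6 FPKM in KO-labelled and 11.3 and 10.4 FPKM in WT libraries. It was lower in KO-labelled libraries with LPS, at a difference of -0.20 ± 0.06 (adjusted p = 0.0438), a call lost without any of KO LPS 1 and 2, WT LPS 1 and 2 and KO no LPS 1 and 2 (adjusted p = 0.0700 to 0.195). The difference was -0.010 with TPM scaling (adjusted p = 0.924) and -0.11 with quantile normalization (adjusted p = 0.226), and the call was also lost with no filter, the replicate block or voom (adjusted p = 0.0695 to 0.0905). Its LPS change in WT libraries was 0.30 ± 0.06 (adjusted p = 0.00271) as deposited and -0.017 with quantile normalization (adjusted p = 0.806). With TPM scaling it was -0.27 and passed in the opposite direction (adjusted p = 0.00799). The ornithine carrier Slc25a15 fell, with changes of -0.67 ± 0.09 in KO-labelled and -0.73 ± 0.09 in WT libraries, as did Slc25a38, a glycine carrier used in heme synthesis, with -0.30 ± 0.09 in KO-labelled and -0.38 ± 0.09 in WT libraries. The Slc25a38 call in KO-labelled libraries was lost without any of KO LPS 1 and 2 and KO no LPS 1 and 2 (adjusted p = 0.0761 to 0.101) and with no filter (adjusted p = 0.0572). Slc25a20, which brings acylcarnitines into the matrix for fatty acid oxidation, fell by 0.43 ± 0.09 in WT libraries and did not pass in KO-labelled libraries, where its change was -0.084 as deposited and -0.54 with TPM scaling (adjusted p = 0.453 and 0.00288).

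**Figure D4:**
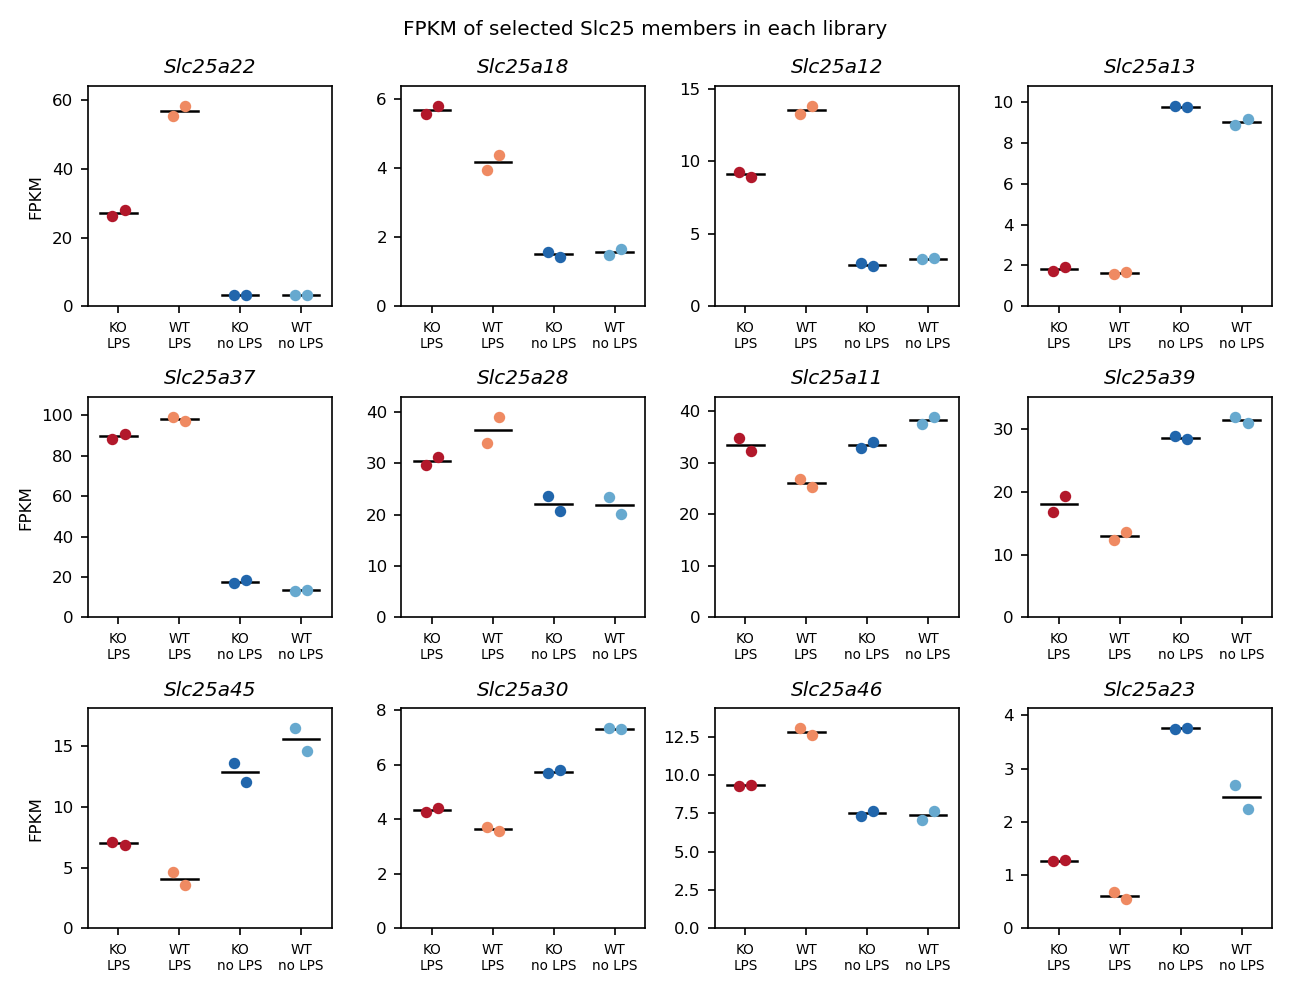
FPKM of 12 carriers in each library, by group from left to right KO LPS, WT LPS, KO no LPS and WT no LPS; points are libraries, the line is the mean of 2, and each panel has its own axis from 0. In the LPS groups Slc25a22, Slc25a12 and Slc25a46 are lower, and Slc25a18, Slc25a11, Slc25a39, Slc25a45, Slc25a30 and Slc25a23 higher, in KO-labelled than in WT libraries.

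Both mitoferrins were higher with LPS under both labels as deposited, and Slc25a37 alone with TPM scaling or quantile normalization. Slc25a37, mitoferrin-1, is known as the main iron importer of developing red cells and lies on chromosome 14 at 69241848 to 69285112 (mm10, minus strand). It stood at 88.4 and 90.9 FPKM in KO-labelled and 99.2 and 97.4 FPKM in WT LPS libraries, against 16.8 and 18.5 FPKM in KO-labelled and 13.2 and 13.5 FPKM in WT libraries without LPS. The label order turned between treatments, with KO-labelled libraries the lower ones with LPS and the higher ones without it. The rise was 2.28 ± 0.05 in KO-labelled and 2.79 ± 0.05 in WT libraries (adjusted p = 6.00e-08 and 1.92e-08), and the interaction was -0.51 ± 0.08 (adjusted p = 0.00657; with quantile normalization -0.32, adjusted p = 0.0616). With LPS the KO-labelled difference of -0.13 ± 0.05 did not pass (adjusted p = 0.112), and it was 0.072 with TPM scaling and 0.12 with quantile normalization. Without LPS Slc25a37 was higher in KO-labelled libraries by 0.38 ± 0.05 (adjusted p = 0.0123), and this call was lost without KO no LPS 2 or without WT no LPS 1 (adjusted p = 0.0694 to 0.0799). Slc25a37 was the most abundant carrier in all 4 LPS libraries, at 17.7 to 19.3% of the summed FPKM of the family, against 3.13 to 4.42% without LPS, where Slc25a5 led in all 4.

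Slc25a28, mitoferrin-2, which is expressed more widely, stood at 29.7 and 31.2 FPKM in KO-labelled and 34.1 and 39.0 FPKM in WT LPS libraries, against 23.6 and 20.6 FPKM in KO-labelled and 23.4 and 20.2 FPKM in WT libraries without LPS. It rose by 0.45 ± 0.10 in KO-labelled libraries and by 0.72 ± 0.10 in WT libraries, where TPM scaling gave -0.012 in KO-labelled and 0.14 in WT libraries and neither passed, nor did either with quantile normalization. Slc25a37 made up 74.8 and 74.5% of the mitoferrin FPKM in KO-labelled and 74.4 and 71.4% in WT LPS libraries, against 41.6 and 47.2% in KO-labelled and 36.1 and 40.0% in WT libraries without LPS. The erythroid markers, which summed to at most 0.664 FPKM, held 3 genes at 0 in every library.

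**Figure D5:**
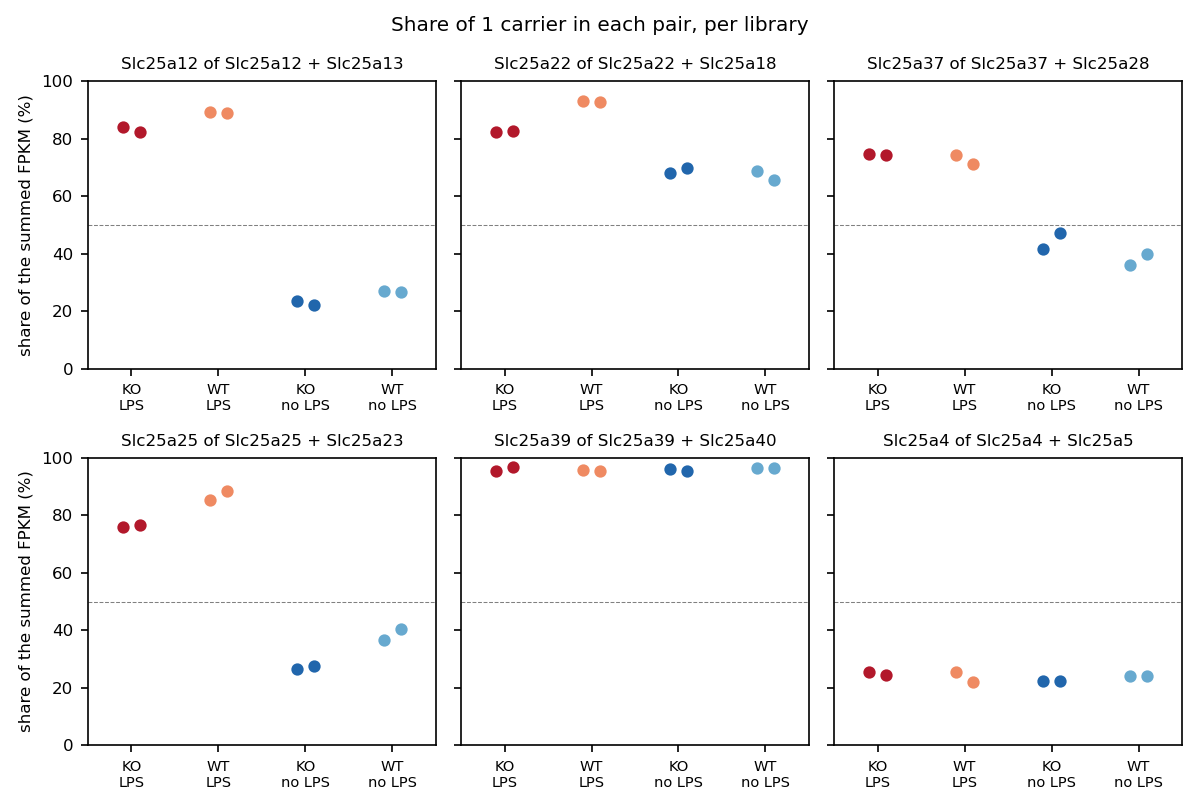
Share of 1 carrier in the summed FPKM of 6 pairs that carry like substrates, in percent, per library and group, with the KO-labelled group left of WT in each treatment; the dashed line is at 50%. Slc25a12, Slc25a37 and Slc25a25 lie above the line in all LPS libraries and below it in all libraries without LPS, while the shares of Slc25a39 and Slc25a4 stay within a narrow band.

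Of the 8 carriers of adenine nucleotides, ATP-Mg and phosphate, 6 were tested. With LPS 1 was higher and 3 lower in KO-labelled libraries, and 1 was higher and 1 lower in WT libraries, whereas with TPM scaling or quantile normalization 1 was higher and 5 lower under each label. Slc25a5, an ADP/ATP carrier of dividing and many other cells, stood at 83.2 and 74.7 FPKM in KO-labelled and 72.0 and 79.0 FPKM in WT LPS libraries, against 92.6 and 90.8 FPKM in KO-labelled and 82.8 and 89.2 FPKM in WT libraries without LPS. The phosphate carrier Slc25a3 stood at 51.4 and 49.8 FPKM in KO-labelled and 52.1 and 54.6 FPKM in WT LPS libraries, against 57.7 and 57.0 FPKM in KO-labelled and 57.9 and 56.4 FPKM in WT libraries without LPS. Slc25a5 was lower with LPS, with a change of -0.22 ± 0.07 in KO-labelled libraries (adjusted p = 0.0334), a call lost without KO LPS 2, KO no LPS 1 or KO no LPS 2 (adjusted p = 0.0896 to 0.168), and its change of -0.19 ± 0.07 in WT libraries did not pass (adjusted p = 0.0517). With TPM scaling the Slc25a5 change was -0.69 in KO-labelled and -0.79 in WT libraries, and with quantile normalization it was -1.04 in KO-labelled and -1.10 in WT libraries, and all 4 of these passed. The Slc25a5 call in KO-labelled libraries was also lost with no filter or the replicate block (adjusted p = 0.0765 and 0.0528). Slc25a3 was lower too, with a change of -0.18 ± 0.04 in KO-labelled libraries (adjusted p = 0.00929), lost without KO no LPS 1 (adjusted p = 0.0569), and its change of -0.10 ± 0.04 in WT libraries did not pass (adjusted p = 0.0784). The Slc25a3 change was -0.65 in KO-labelled and -0.70 in WT libraries with TPM scaling, and -0.84 in KO-labelled and -0.88 in WT libraries with quantile normalization, and these passed too. The sizes of both changes thus rested on the scaling. Slc25a4, the ADP/ATP carrier of muscle and other differentiated cells, passed under neither label as deposited, at a change of 0.00 ± 0.09 in KO-labelled and -0.20 ± 0.09 in WT libraries (adjusted p = 0.990 and 0.0834). With TPM scaling it passed under both, at -0.47 in KO-labelled and -0.81 in WT libraries (adjusted p = 0.00330 and 1.84e-04), and likewise with quantile normalization, at -0.46 in KO-labelled and -0.77 in WT libraries. In WT libraries it passed with voom as well (adjusted p = 0.0135) and without KO LPS 1 or KO LPS 2 (adjusted p = 0.0353 and 0.0350). It made up 22.1 to 25.6% of the FPKM of Slc25a4 and Slc25a5 in every library. Processed pseudogenes of Slc25a5 with 96.8 and 98.3% identity, Gm5529 and Gm5560, summed to 1.13 to 2.33 FPKM, so its value may include or lack reads shared with them.

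The calcium-regulated ATP-Mg/phosphate carriers Slc25a25 and Slc25a23, which set the adenine nucleotide content of the matrix, moved apart. Slc25a25 stood at 4.0 and 4.22 FPKM in KO-labelled and 3.93 and 4.10 FPKM in WT LPS libraries, against 1.35 and 1.44 FPKM in KO-labelled and 1.56 and 1.52 FPKM in WT libraries without LPS. It rose by 1.09 ± 0.07 in KO-labelled and 0.98 ± 0.07 in WT libraries (adjusted p = 9.93e-06 and 1.45e-05). Slc25a25 overlaps 989 bases of Naif1 on the other strand, which averaged 2.46 FPKM in KO-labelled and 2.56 FPKM in WT LPS libraries, against 1.49 FPKM under both labels without LPS, and the part of shared reads was not tested. Slc25a23 stood at 1.26 and 1.29 FPKM in KO-labelled and 0.678 and 0.541 FPKM in WT LPS libraries, against 3.75 and 3.76 FPKM in KO-labelled and 2.70 and 2.24 FPKM in WT libraries without LPS. The LPS libraries were the lower ones under both labels, and the KO-labelled libraries the higher ones in both treatments. It fell, with changes of -1.07 ± 0.10 in KO-labelled and -1.11 ± 0.10 in WT libraries (adjusted p = 6.21e-05 and 4.29e-05). Slc25a25 made up 76.1 and 76.6% of the FPKM of this pair in KO-labelled and 85.3 and 88.3% in WT LPS libraries, against 26.5 and 27.7% in KO-labelled and 36.7 and 40.4% in WT libraries without LPS.

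Slc25a23 was higher in KO-labelled libraries by 0.50 ± 0.10 with LPS (adjusted p = 0.00925) and by 0.46 ± 0.10 without it (adjusted p = 0.0433). The call with LPS was lost without WT LPS 2 (adjusted p = 0.0502) and that without LPS when any single library was left out (adjusted p = 0.0589 to 0.214). The call without LPS was also lost with TPM scaling, a pseudocount of 0.1, no filter or the replicate block (adjusted p = 0.0527 to 0.106). Slc25a24, the third carrier of this kind, stood at 14.0 and 14.4 FPKM in KO-labelled LPS libraries, against 12.6 and 12.3 FPKM in WT LPS libraries, and at 14.5 and 14.0 FPKM in KO-labelled libraries without LPS, against 13.1 and 14.2 FPKM in WT libraries. Its difference with LPS of 0.18 ± 0.05 passed (adjusted p = 0.0463), and the call was lost without any of KO LPS 1 and 2, WT LPS 1 and 2 and KO no LPS 1 and 2 (adjusted p = 0.0811 to 0.176). It was lost as well with no filter, the replicate block or voom (adjusted p = 0.0573 to 0.0729), and TPM scaling gave 0.39 (adjusted p = 0.00423).

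The dicarboxylate carrier Slc25a10, which exchanges malate or succinate for phosphate, and the oxoglutarate carrier Slc25a11, which exchanges oxoglutarate for malate in the malate-aspartate shuttle, were both higher in KO-labelled than in WT libraries with LPS. Slc25a10 stood at 14.6 and 14.3 FPKM in KO-labelled and 10.1 and 11.8 FPKM in WT LPS libraries, against 9.09 and 8.21 FPKM in KO-labelled and 9.20 and 8.77 FPKM in WT libraries without LPS. Slc25a11 stood at 34.8 and 32.2 FPKM in KO-labelled and 26.8 and 25.2 FPKM in WT LPS libraries, against 32.9 and 33.9 FPKM in KO-labelled and 37.6 and 38.8 FPKM in WT libraries without LPS. In KO-labelled libraries the treatments overlapped for Slc25a11, whereas in WT libraries it was lower with LPS. Its change in KO-labelled libraries was 0.00 as deposited (adjusted p = 0.972), -0.47 with TPM scaling and -0.55 with quantile normalization, and the last 2 passed (adjusted p = 4.25e-04 and 1.18e-04). The Slc25a11 change in WT libraries was -0.54 ± 0.06 (adjusted p = 1.11e-04), -1.15 with TPM scaling and -1.18 with quantile normalization. Its difference between labels with LPS was 0.35 ± 0.06 (adjusted p = 0.00421) and its interaction 0.54 ± 0.08 (adjusted p = 0.00627). Without LPS its difference of -0.19 ± 0.06 did not pass (adjusted p = 0.110). It overlaps 245 bases of Rnf167 on the other strand, which averaged 5.46 FPKM in KO-labelled and 6.19 FPKM in WT LPS libraries, against 8.49 FPKM in KO-labelled and 8.11 FPKM in WT libraries without LPS, and the part of shared reads was not tested.

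Slc25a10 rose with LPS by 0.68 ± 0.08 in KO-labelled libraries (adjusted p = 2.94e-04). In WT libraries its change was 0.26 ± 0.08 (adjusted p = 0.0260) as deposited. With TPM scaling it was -0.31 and passed in the opposite direction (adjusted p = 0.0104). The call was lost with quantile normalization, at 0.0052, with no filter (adjusted p = 0.0556) and without WT LPS 2, WT no LPS 1 or WT no LPS 2. It was higher in KO-labelled libraries with LPS by 0.37 ± 0.08 (adjusted p = 0.0157), lost without KO LPS 1, KO LPS 2 or WT LPS 1 (adjusted p = 0.0546 to 0.0709). Its interaction of 0.42 ± 0.12 did not pass (adjusted p = 0.0533), and it passed with TPM scaling, at 0.57, with voom, at 0.47, and with a pseudocount of 5, an FPKM minimum of 5 or without WT LPS 2 (adjusted p = 0.0128 to 0.0434 over these 5).

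The carriers of nucleotides, cofactors and glutathione held 10 tested members of 11. With LPS 3 were higher and 5 lower in KO-labelled libraries, and 2 were higher and 5 lower in WT libraries. The lower ones include Slc25a40 under both labels and Slc25a26 in WT libraries, which reached 1 FPKM in libraries without LPS only. With TPM scaling 0 were higher and 7 lower in KO-labelled libraries, and 1 was higher and 8 lower in WT libraries. Slc25a39, which imports glutathione, stood at 16.8 and 19.4 FPKM in KO-labelled and 12.4 and 13.6 FPKM in WT LPS libraries, against 28.9 and 28.4 FPKM in KO-labelled and 32.0 and 31.1 FPKM in WT libraries without LPS. The LPS libraries were lower under both labels, and less so in the KO-labelled ones. It fell, with changes of -0.64 ± 0.08 in KO-labelled and -1.22 ± 0.08 in WT libraries (adjusted p = 2.58e-04 and 6.70e-06), and with LPS it was higher in KO-labelled libraries by 0.45 ± 0.08 (adjusted p = 0.00539). The difference without LPS, -0.13 ± 0.08, did not pass (adjusted p = 0.364). The interaction was 0.58 ± 0.11 (adjusted p = 0.0138), and that call was lost without KO no LPS 1 or KO no LPS 2 (adjusted p = 0.0513 to 0.0561). Slc25a40, its close relative, stayed at or under 1.38 FPKM, and Slc25a39 made up 95.3 to 97.0% of the pair in every library.

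Slc25a33, a pyrimidine nucleotide carrier, stood at 3.42 and 3.75 FPKM in KO-labelled and 2.17 and 2.09 FPKM in WT LPS libraries, against 2.25 and 2.88 FPKM in KO-labelled and 2.90 and 2.36 FPKM in WT libraries without LPS. It was higher in KO-labelled libraries with LPS by 0.55 ± 0.11 (adjusted p = 0.0126), lost without KO LPS 2 or WT LPS 2 (adjusted p = 0.0633 to 0.0657). With LPS it rose by 0.37 ± 0.11 in KO-labelled libraries (adjusted p = 0.0252), lost without KO LPS 2 or KO no LPS 1 (adjusted p = 0.112 to 0.150). This rise was 0.015 with TPM scaling (adjusted p = 0.933), and the call was also lost with no filter (adjusted p = 0.0655). Its change of -0.21 ± 0.11 in WT libraries did not pass as deposited (adjusted p = 0.142) and passed with TPM scaling, at -0.80 (adjusted p = 0.00222). Nor did the interaction of 0.58 ± 0.16 pass (adjusted p = 0.0567). The other pyrimidine nucleotide carrier, Slc25a36, fell, with changes of -0.57 ± 0.08 in KO-labelled and -0.49 ± 0.08 in WT libraries. Slc25a17, which serves cofactors of the peroxisome, rose by 0.56 ± 0.08 in KO-labelled and 0.86 ± 0.08 in WT libraries, and the rise in KO-labelled libraries was 0.14 with TPM scaling and did not pass. Slc25a16, linked to coenzyme A, fell, with changes of -0.46 ± 0.10 in KO-labelled and -0.62 ± 0.10 in WT libraries. The NAD carrier Slc25a51, at 12.8 to 14.9 FPKM in every library, passed in none of the comparisons as deposited. Its LPS change was -0.40 in KO-labelled and -0.70 in WT libraries with TPM scaling and -0.25 in KO-labelled and -0.47 in WT libraries with quantile normalization, and all 4 passed, as did its difference between labels with LPS of 0.21 with TPM scaling.

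All 3 uncoupling-protein-like carriers were tested, and with LPS 0 were higher and 2 lower in KO-labelled libraries, while 1 was higher and 2 lower in WT libraries. Slc25a30, also named KMCP1 for its expression in kidney, stood at 4.28 and 4.42 FPKM in KO-labelled and 3.70 and 3.58 FPKM in WT LPS libraries, against 5.68 and 5.81 FPKM in KO-labelled and 7.34 and 7.30 FPKM in WT libraries without LPS. KO-labelled libraries were the higher ones with LPS and the lower ones without it. It fell with LPS, with changes of -0.33 ± 0.05 in KO-labelled and -0.84 ± 0.05 in WT libraries (adjusted p = 0.00137 and 8.72e-06), and the interaction was 0.51 ± 0.08 (adjusted p = 0.00711). The KO-labelled difference was 0.21 ± 0.05 with LPS (adjusted p = 0.0310) and -0.30 ± 0.05 without it (adjusted p = 0.0281). The first of these was lost without any of KO LPS 1 and 2, WT LPS 1 and 2 and KO no LPS 1 and 2 (adjusted p = 0.0670 to 0.128), and the second without any of WT LPS 1 and 2, KO no LPS 1 and 2 and WT no LPS 1 and 2 (adjusted p = 0.0510 to 0.189). The first was also lost with the replicate block or voom (adjusted p = 0.0532 and 0.0861) and was 0.43 with TPM scaling, and the second was lost with TPM scaling or the replicate block (adjusted p = 0.0851 and 0.0586). Slc25a27 stood at 0.209 and 0.231 FPKM in KO-labelled and 0.0558 and 0.0788 FPKM in WT LPS libraries, against 1.42 and 1.59 FPKM in KO-labelled and 1.08 and 1.13 FPKM in WT libraries without LPS. It fell, with changes of -1.04 ± 0.11 in KO-labelled and -0.98 ± 0.11 in WT libraries (adjusted p = 1.46e-04 and 1.65e-04), a change that the scale understates at this level. Slc25a27 reached 1 FPKM in libraries without LPS only, so passing the filter already placed it among the lower ones. Slc25a14 changed by 0.40 ± 0.13 in WT libraries (adjusted p = 0.0308), lost without WT LPS 1, WT no LPS 1 or WT no LPS 2 (adjusted p = 0.0734 to 0.162). It was 0.035 with TPM scaling (adjusted p = 0.873), and the call was also lost with no filter (adjusted p = 0.0805).

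Of the 9 carriers with a less settled substrate or role 4 were tested, and with LPS 1 was higher and 2 lower in KO-labelled libraries, while 2 were higher and 2 lower in WT libraries. Slc25a45 stood at 7.15 and 6.87 FPKM in KO-labelled and 4.62 and 3.60 FPKM in WT LPS libraries, against 13.7 and 12.1 FPKM in KO-labelled and 16.5 and 14.6 FPKM in WT libraries without LPS. All LPS libraries were lower than all others, and among them the WT ones were the lowest. It fell, with changes of -0.79 ± 0.11 in KO-labelled and -1.70 ± 0.11 in WT libraries (adjusted p = 6.45e-04 and 9.16e-06). With LPS it was higher in KO-labelled libraries by 0.66 ± 0.11 (adjusted p = 0.00561), and without LPS the difference was -0.26 ± 0.11 (adjusted p = 0.246). Its interaction, 0.91 ± 0.16 (adjusted p = 0.0112), was the largest positive one of the family.

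Slc25a46, which sits in the outer mitochondrial membrane and is known for its part in mitochondrial dynamics, stood at 9.31 and 9.34 FPKM in KO-labelled and 13.1 and 12.6 FPKM in WT LPS libraries, against 7.36 and 7.68 FPKM in KO-labelled and 7.10 and 7.68 FPKM in WT libraries without LPS. The WT LPS libraries were the highest, and the KO-labelled LPS libraries lay between them and the libraries without LPS. It was lower in KO-labelled libraries with LPS, at a difference of -0.42 ± 0.06 (adjusted p = 0.00216). The interaction stood at -0.45 ± 0.08 (adjusted p = 0.0131), and this call was lost without KO no LPS 2 (adjusted p = 0.0610) and with TPM scaling (adjusted p = 0.0544). The LPS change was 0.28 ± 0.06 in KO-labelled libraries (adjusted p = 0.00416), where TPM scaling gave -0.16 and quantile normalization 0.11 (adjusted p = 0.0620 and 0.130), and 0.72 ± 0.06 in WT libraries (adjusted p = 2.52e-05), 0.19 with TPM scaling. Slc25a35 stood at 0.205 and 0.265 FPKM in KO-labelled and 0.199 and 0.0211 FPKM in WT LPS libraries, against 1.34 and 1.06 FPKM in KO-labelled and 1.33 and 1.5 FPKM in WT libraries without LPS, and it fell, with changes of -0.83 ± 0.14 in KO-labelled and -1.12 ± 0.14 in WT libraries (adjusted p = 0.00140 and 2.52e-04). It reached 1 FPKM in libraries without LPS only, so passing the filter already placed it among the lower ones. Slc25a43 had a change of 0.42 ± 0.12 in WT libraries (adjusted p = 0.0159), -0.056 with TPM scaling, lost without WT LPS 1 or WT no LPS 2 (adjusted p = 0.0875 to 0.0889).

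Members of the family under other symbols, and partners of these carriers, were taken from lists chosen by function. Their counts with LPS as deposited stand beside 34.7% of all tested genes higher and 31.2% lower in KO-labelled libraries. In WT libraries the shares of all tested genes were 37.7% higher and 33.9% lower. Their counts with TPM scaling stand beside 2451 higher and 6497 lower of all 11887 tested genes in KO-labelled libraries. In WT libraries 2545 of all genes were higher and 6846 lower under it. Of the 3 tested family members with other symbols, 1 was higher and 2 lower with LPS under each label, and 0 were higher and 3 lower under each with TPM scaling. Ucp2, an uncoupling protein that carries C4 metabolites, fell, with changes of -1.33 ± 0.05 in KO-labelled and -1.56 ± 0.05 in WT libraries, and Mtch1 with -0.23 ± 0.05 in KO-labelled and -0.45 ± 0.05 in WT libraries. The Mtch1 call in KO-labelled libraries was lost without KO no LPS 1 (adjusted p = 0.0509). All 5 tested enzymes of the malate-aspartate and glycerol phosphate shuttles passed under both labels, 2 higher and 3 lower. Of all tested genes 65.9% passed in KO-labelled and 71.5% in WT libraries. With TPM scaling 1 of the 5 was higher and 3 lower in KO-labelled libraries, and 1 higher and 4 lower in WT libraries. The mitochondrial glycerol phosphate dehydrogenase Gpd2 rose by 3.16 ± 0.05 in KO-labelled and 3.02 ± 0.05 in WT libraries. The cytosolic aspartate aminotransferase Got1 fell, with changes of -2.33 ± 0.11 in KO-labelled and -2.53 ± 0.11 in WT libraries, as did Mdh1, the cytosolic malate dehydrogenase, with -0.93 ± 0.14 in KO-labelled and -0.76 ± 0.14 in WT libraries. Gpd2, Got1 and Mdh1 kept their call in the LPS comparisons in each alternative that tested them. Mdh2, the mitochondrial malate dehydrogenase, had changes of 0.42 in KO-labelled and 0.34 in WT libraries as deposited, and both passed. In WT libraries it passed in the opposite direction with TPM scaling, at -0.25, and with quantile normalization, at -0.20 (adjusted p = 0.00792 and 0.0207). In KO-labelled libraries it was -0.035 with TPM scaling and 0.016 with quantile normalization, and neither passed.

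Of the 4 tested mitochondrial folate enzymes 3 were higher and 0 lower with LPS in KO-labelled libraries, and 2 higher and 0 lower in WT libraries. With TPM scaling 2 were higher and 1 lower in KO-labelled libraries, and 2 higher and 2 lower in WT libraries. Mthfd2, which makes formate precursors in the matrix, rose by 3.18 ± 0.07 in KO-labelled and 2.84 ± 0.07 in WT libraries. Mthfd1l, which makes formate, rose by 2.14 ± 0.09 in KO-labelled and 0.97 ± 0.09 in WT libraries, and its interaction of 1.17 ± 0.12 passed (adjusted p = 0.00224). With LPS Mthfd1l was higher in KO-labelled libraries by 0.96 ± 0.09 (adjusted p = 4.29e-04). Slc25a32, which brings folate into mitochondria, was lower with LPS in KO-labelled libraries, with a change of -0.43 ± 0.12 (adjusted p = 0.0165), a call lost without KO LPS 1 or KO no LPS 1 (adjusted p = 0.0665 to 0.0996), and in WT libraries its change of -0.27 did not pass (adjusted p = 0.0827), whereas it passed with TPM scaling, at -0.88, and with voom, at -0.41 (adjusted p = 0.00102 and 0.0165).

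Of the 20 tested mitochondrial transporters outside the family, 8 were higher and 5 lower with LPS in KO-labelled libraries, and 5 higher and 8 lower in WT libraries. With TPM scaling 3 were higher and 13 lower in KO-labelled libraries, and 5 higher and 14 lower in WT libraries. Tspo, a cholesterol-binding protein of the outer membrane, rose by 2.56 ± 0.07 in KO-labelled and 3.10 ± 0.07 in WT libraries, and the sideroflexin Sfxn3, a serine transporter, fell, with changes of -1.76 ± 0.09 in KO-labelled and -1.79 ± 0.09 in WT libraries. Between labels with LPS 3 of these 20 were higher (10.8% of all genes) and 4 lower (18.1%) in KO-labelled libraries. TPM scaling gave 10 higher and 2 lower, where 3010 of all 11887 tested genes were higher and 1075 lower. Among the 20, as deposited, Tspo differed by -0.58 ± 0.07 and the mitochondrial ABC transporter Abcb8 by 0.45 ± 0.07 (adjusted p = 0.00182 and 0.00409). Of the 13 tested genes for the import of carrier proteins, 5 were higher and 2 lower with LPS in KO-labelled libraries, and 4 higher and 2 lower in WT libraries, where TPM scaling gave 0 higher and 7 lower in KO-labelled and 1 higher and 7 lower in WT libraries. Tomm20, a receptor of the outer membrane, fell, with changes of -0.59 ± 0.07 in KO-labelled and -0.79 ± 0.07 in WT libraries. Tomm70a, the receptor that takes in carrier precursors, rose by 0.45 ± 0.07 in KO-labelled and 0.73 ± 0.07 in WT libraries, and the rise in KO-labelled libraries was 0.043 with TPM scaling and did not pass.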

How the data were processed

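Bulk RNA sequencing of 8 libraries was read from a table of gene FPKM values, deposited by the authors with the gene length behind each value; how they scaled library size is not stated. Genome build mm10 and the tool DESeq2 are named in the submitters' processing notes without a role, and no source used here gives the aligner, counter, annotation release or strand setting. Multiplied by gene length, the values are whole multiples of 1 step per library within 0.001, so reads were rebuilt for depth and for 1 alternative. The step implies a library size of 0.784 to 1.28 times the rebuilt total, so the FPKM values carry a scaling beyond total reads. This factor differed between groups. It was 0.925 and 0.914 in KO-labelled LPS libraries and 0.797 and 0.784 in WT LPS libraries. Without LPS it was 1.28 in both KO-labelled libraries and 1.21 and 1.23 in WT libraries.

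Differences were tested on log2(FPKM + 1) with limma 3.58.1 in R 4.3.3 (moderated, with a trend on the mean), on 4 groups of 2 in 1 model, for genes with at least 1 FPKM in at least 2 libraries. All p-values are two-sided and adjusted by Benjamini-Hochberg over all 11887 tested genes. Comparisons were LPS against no LPS within each label, KO-labelled against WT within each treatment, and their interaction. The fit was tested on simulated data with known changes. Members and lists were chosen with earlier results of these data known. Values per library are given for members that passed with an absolute log2 change of at least 1 for LPS, that passed between labels or in the interaction, or that had the 3 highest mean levels; those of Slc25a28 and the changes of further members were added after their values were seen. Values of 1 member, counted in the family totals, are not reported here. Of each list of partner genes up to 4 that passed with the largest changes were named. Alternatives were other pseudocounts, filters and scalings, a replicate block, voom on rebuilt reads, and leaving out each library. Replicate numbers did not pair the libraries, with correlations of -0.08 to 0.03. Replicates of a group differed beyond counting noise. The ± values are standard errors of the moderated fit and rest on the spread between libraries of a group. Floors cover counting error only.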

Additional observations from a re-analysis of the deposited data

Results flagged for a closer look

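The LPS response differed between KO-labelled and WT libraries for 8 carriers by the interaction term itself, tested in limma over all genes; the values are the LPS change in KO-labelled libraries less that in WT libraries, with SE, in log2(FPKM + 1). In the positive direction it was 0.91 ± 0.16 for Slc25a45, 0.58 ± 0.11 for Slc25a39, 0.54 ± 0.08 for Slc25a11 and 0.51 ± 0.08 for Slc25a30. Slc25a45, Slc25a39 and Slc25a30 fell less with LPS in KO-labelled libraries (-0.79, -0.64 and -0.33) than in WT libraries (-1.70, -1.22 and -0.84), and Slc25a11 did not pass in KO-labelled libraries and fell in WT libraries (-0.54). In the negative direction it was -1.07 ± 0.08 for the glutamate carrier Slc25a22, -0.51 ± 0.08 for mitoferrin Slc25a37, -0.45 ± 0.08 for Slc25a46 and -0.37 ± 0.08 for Slc25a12. These rose less in KO-labelled libraries (2.71, 2.28, 0.28 and 1.38) than in WT libraries (3.78, 2.79, 0.72 and 1.76). Slc25a11, Slc25a22, Slc25a30 and Slc25a45 also passed in each of the 16 alternatives run; the alternatives that ended the call of Slc25a12, Slc25a37, Slc25a39 and Slc25a46 are given with these genes above. Elf1 itself had an interaction of -0.64 (adjusted p = 0.00891), and it was not lower in KO-labelled libraries without LPS.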

How the results depend on the processing

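Of 95 results for single carriers, 76 had passed, and over the 16 alternatives 1329 values kept direction and side of the threshold, 113 lost a call, 30 gained one and 19 changed sign. In the LPS comparison, every alternative that tested a carrier kept its call for 16 of 25 carriers reported singly in KO-labelled libraries. In WT libraries this held for 21 of 27. It held for 6 of 13 between labels with LPS, 0 of 3 between labels without LPS and 4 of 8 in the interaction. Some low carriers, among them Slc25a15 and Slc25a23, fell under the higher FPKM minimum and had 15 alternatives, not 16. Of the 19 that changed sign, 12 did so with TPM scaling or quantile normalization. With TPM scaling the LPS change in KO-labelled libraries was -0.012 for Slc25a28 and -0.16 for Slc25a46. With TPM scaling that in WT libraries was -0.31 for Slc25a10, -0.056 for Slc25a43 and -0.27 for Slc25a44, which was -0.017 with quantile normalization. The TPM values of Slc25a10 and Slc25a44 passed (adjusted p = 0.0104 and 0.00799), opposite in direction to the calls as deposited. The difference of Slc25a37 between labels with LPS was 0.072 with TPM scaling and 0.12 with quantile normalization. The LPS changes of Slc25a4, Slc25a11 and Slc25a20 in KO-labelled libraries lay near 0 as deposited. That of Slc25a4 was -0.47 with TPM scaling, -0.46 with quantile normalization, -0.029 with voom and -0.12 to 0.12 with 1 library left out. That of Slc25a11 was -0.47 with TPM scaling, -0.55 with quantile normalization, -0.027 with voom and -0.050 to 0.056 with 1 library left out, and that of Slc25a20 was then -0.17 to 0.0042.

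Counts of carriers that passed moved by over 1.5 times as follows. With TPM scaling they were 6 higher with LPS in KO-labelled libraries, 7 higher and 24 lower in WT libraries, 17 higher in KO-labelled libraries with LPS, 1 higher and 0 lower without LPS, and 2 in the negative direction of the interaction. With quantile normalization 2 were lower in KO-labelled libraries without LPS and 2 negative in the interaction. The counts of all genes under both scalings are given with each comparison above. With an FPKM minimum of 5 the LPS comparison gave 7 lower in KO-labelled and 7 lower in WT libraries, since fewer carriers were tested, and 1 was higher between labels without LPS. Between labels without LPS 1 was higher with a pseudocount of 0.1 and 1 with no filter, and voom gave 3 lower. The replicate block, in which the numbers pair nothing by their correlations, gave 1 higher and 0 lower between labels without LPS and within 1.5 times the count elsewhere. The cause was not tested for the other moves.

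Leaving out each library in turn gave 10 to 12 higher and 11 to 15 lower with LPS in KO-labelled libraries and 10 to 13 higher and 14 to 17 lower in WT libraries. Between labels it gave 4 to 9 higher and 3 to 4 lower with LPS and 0 to 1 higher and 0 to 1 lower without LPS, and the interaction 3 to 5 positive and 2 to 4 negative. The lone library of a group was then assumed to vary like the other groups. With 2 libraries a group, small differences are not detectable, and carriers under 1 FPKM were not tested.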
